A study of Mus musculus with 8 samples.

Results

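Promoters of long intergenic noncoding RNAs (lincRNAs) that stand apart from protein-coding genes were examined in chromatin accessibility data from formalin-fixed paraffin-embedded (FFPE) mouse spleen. A lincRNA gene was kept when its transcription start site (TSS) in GENCODE M21 on chromosomes 1 to 19 lay more than 5 kb from every protein-coding TSS, and its promoter was the window from 1000 bp upstream to 200 bp downstream of each such TSS. This rule, which uses no measured value, kept 4536 of 5209 lincRNA genes with 6241 windows, among 51229 genes of all types. Of the 4536 genes, 941 had more than 1 kept TSS, and a gene counted as called when a peak touched any of its windows by at least 1 bp. Between 5 and 6 kb from a protein-coding TSS, just inside the limit, 60 lincRNA genes held 7 with peaks in both +RV libraries, and between 6 and 7 kb 67 held 10. Just outside it, 73 genes between 4 and 5 kb held 14 and 65 between 3 and 4 kb held 7. The closest kept gene was AW121686, at 5002 bp, with no peak. Mir142hg, host of the blood microRNA miR-142, fell just outside at 4964 bp and is not a member, although it had a peak in every library.

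Nuclei were isolated from FFPE spleens of C57BL/6J mice aged 8 weeks, transposed with Tn5, and their DNA was purified either with reverse crosslinking (+RV), which takes off the formaldehyde bonds, or without it (−RV). The study used mice of both sexes, and the labels give no other difference between the conditions. Bulk ATAC-seq gave 2 libraries per condition with 1 peak list each. Single nuclei, barcoded by splitting and pooling, were deposited as 1 pooled fragment set per condition. The bulk libraries of a condition are technical replicates according to the study, so a p-value across them speaks only of technical spread. The −RV lists held 32288 and 32736 peaks and the +RV lists 47755 and 47864, covering 15.7 to 16.4 Mb and 26.2 to 26.3 Mb. The pooled sets held 1592372 (−RV) and 13703580 (+RV) nuclear fragments from 2406 and 18620 barcodes, and the read depth behind the bulk lists is unknown here. Of genes of all types, 28.9% carried a peak at the promoter in both lists made with +RV. Of defining B cell markers 14 of 16 genes did, and of T cell markers 15 of 18. Of 9 acinar cell markers of the pancreas 0 did. The remaining marker lists ranged from 1 of 11 neutrophil to 14 of 15 erythroid genes. The acinar count covers bulk peaks only and does not show that acinar chromatin was absent. In the pooled sets the acinar promoters had a median of 2.97 (−RV) and 1.57 (+RV) CPM per kb, a unit explained below. For B cell markers it was 1.59 and 2.03.

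A lincRNA is a transcript with no long reading frame that starts from a promoter of its own between protein-coding genes. Most lincRNAs are made in few copies and in few cell types, and many of their start sites lack the CpG islands that mark constitutively used promoters, although hosts of microRNAs and small nucleolar RNAs (snoRNAs) and a few abundant nuclear RNAs are widely transcribed. ATAC-seq reads a promoter as open when Tn5 can insert there, whether or not the RNA is stable, and bulk signal cannot tell fewer cells with an open promoter from weaker opening in each cell.

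Core sequences of 6 lincRNA promoters are given because they span the range from high, constant accessibility to none. Each runs 5′ to 3′ from 250 bases before the TSS to 50 bases from it, on the reference genome mm10 (GRCm38), with CpG dinucleotides in capitals. The TSS is the kept one nearest to the summit of the peak, or the most upstream one where no library had a peak.
Gm26611: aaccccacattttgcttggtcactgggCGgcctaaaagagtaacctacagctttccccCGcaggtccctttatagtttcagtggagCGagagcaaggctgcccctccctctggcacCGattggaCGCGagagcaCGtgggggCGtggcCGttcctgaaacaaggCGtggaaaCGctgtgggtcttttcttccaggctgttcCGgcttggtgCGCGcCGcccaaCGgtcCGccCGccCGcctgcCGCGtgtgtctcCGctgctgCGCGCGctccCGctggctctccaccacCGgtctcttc
Snhg12: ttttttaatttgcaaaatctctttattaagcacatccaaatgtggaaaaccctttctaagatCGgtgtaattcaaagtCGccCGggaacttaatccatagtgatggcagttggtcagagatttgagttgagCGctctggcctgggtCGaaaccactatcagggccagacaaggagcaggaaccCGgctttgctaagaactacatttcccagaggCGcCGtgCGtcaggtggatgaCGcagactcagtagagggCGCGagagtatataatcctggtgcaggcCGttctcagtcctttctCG
Lncpint: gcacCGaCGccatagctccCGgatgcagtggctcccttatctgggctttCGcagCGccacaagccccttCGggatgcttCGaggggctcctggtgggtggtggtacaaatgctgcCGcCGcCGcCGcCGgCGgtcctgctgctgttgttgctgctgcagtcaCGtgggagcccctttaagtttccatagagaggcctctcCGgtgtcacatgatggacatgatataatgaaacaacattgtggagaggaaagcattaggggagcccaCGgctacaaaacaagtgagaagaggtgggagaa
Gm30684: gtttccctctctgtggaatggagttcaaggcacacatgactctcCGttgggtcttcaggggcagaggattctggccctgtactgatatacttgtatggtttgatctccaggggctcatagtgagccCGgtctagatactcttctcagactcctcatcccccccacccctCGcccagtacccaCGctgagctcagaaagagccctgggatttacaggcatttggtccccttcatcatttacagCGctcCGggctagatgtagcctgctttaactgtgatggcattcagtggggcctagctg
Meg3: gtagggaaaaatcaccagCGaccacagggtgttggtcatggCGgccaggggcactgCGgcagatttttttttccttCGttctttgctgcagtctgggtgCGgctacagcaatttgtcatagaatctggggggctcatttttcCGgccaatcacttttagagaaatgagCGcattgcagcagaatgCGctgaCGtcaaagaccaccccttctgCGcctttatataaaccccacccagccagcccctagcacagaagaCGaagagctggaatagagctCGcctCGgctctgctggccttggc
H19: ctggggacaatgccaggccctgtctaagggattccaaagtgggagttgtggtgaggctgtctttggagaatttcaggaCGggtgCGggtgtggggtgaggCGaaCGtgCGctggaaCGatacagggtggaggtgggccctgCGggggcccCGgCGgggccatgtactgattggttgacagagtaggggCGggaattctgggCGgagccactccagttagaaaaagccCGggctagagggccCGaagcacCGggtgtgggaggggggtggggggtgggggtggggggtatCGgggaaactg

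Gm26611 (chr9:88858761-88859060, plus strand), the lincRNA promoter with the strongest bulk peaks, held 27 CpG dinucleotides and 4 GC boxes (GGGCGG on either strand). Snhg12 (chr4:132308385-132308684, plus), a snoRNA host, held 14 CpG dinucleotides and Lncpint (chr6:31218384-31218683, minus), a p53-induced transcript, 16. These 3 promoters had a peak in every bulk library. Gm30684 (chr7:38061651-38061950, minus), with peaks in the +RV libraries alone, held 6 CpG dinucleotides. Meg3 (chr12:109540751-109541050, plus) and H19 (chr7:142578094-142578393, minus), imprinted genes used mainly in the embryo, had no peak in any library despite 13 and 15 CpG dinucleotides, and H19 held 2 GC boxes. A CpG count in the core alone therefore did not sort the 6 promoters into those with and without a peak.

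Few lincRNA promoters were open in FFPE spleen. In the −RV libraries 348 and 347 of the 4536 were touched by a peak, 7.66% ± 0.0156 (SD, n = 2 libraries), against 25.9% and 26.0% of genes of all types. In the +RV libraries the number was 545 in both, 12.01%, against 30.0% and 30.1% of all genes. The +RV share was 1.57 times the −RV share, and the libraries did not overlap (exact two-sided permutation test, p = 0.333, the smallest p that 2 against 2 libraries allow). LincRNA genes nearer than 5 kb to a protein-coding TSS had shares of 37.5% ± 0.315 and 42.1% ± 0.736 (n = 2 each), and protein-coding genes lying more than 5 kb from other protein-coding TSSs, called isolated here, 45.02% ± 0.0412 and 51.8% ± 0.0823.

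**Figure D1:**
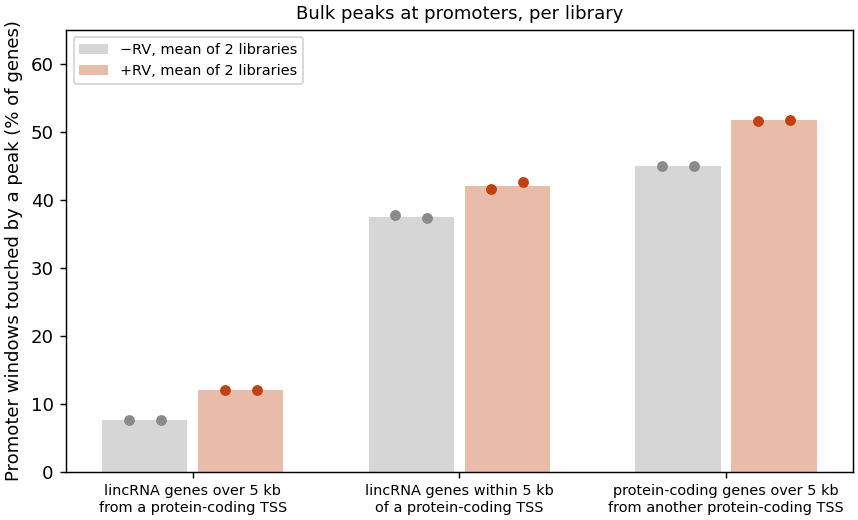
Share of genes with a promoter window touched by a bulk peak (percent), for lincRNA genes over 5 kb and within 5 kb of a protein-coding TSS and for isolated protein-coding genes. Bars are means of 2 libraries and points are the libraries. LincRNA promoters go from 7.66% to 12.01%, far below the 45.02% and 51.8% of protein-coding promoters.

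In each of the 4 libraries the lincRNA share lay below that of isolated protein-coding genes, by 38.6 percentage points on average (exact sign-flip test over 4 libraries, p = 0.125, the smallest it can give). Relative to isolated protein-coding genes, lincRNA promoters were called 0.170 times as often in −RV and 0.232 times as often in +RV, a ratio 1.36 times as high in +RV (exact permutation test, p = 0.333). In percentage points the order was the other way round: the lincRNA share was higher in +RV by 4.35 points and the isolated protein-coding share by 6.75. The +RV lists were longer, and with the same number of strongest peaks taken from every library the lincRNA shares were 7.62% and 9.03%, a ratio of 1.19, and the ratio relative to isolated protein-coding genes was 1.098 times as high in +RV.

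Both −RV libraries had a peak at 288 lincRNA promoters (6.35%, against 24.9% of all genes) and both +RV libraries at 482 (10.6%, against 28.9%). Promoters called in all 4 libraries numbered 281 (6.19%, against 24.8%), and 3917 had no peak in any. A peak in both +RV and in neither −RV library was found for 102 lincRNAs (2.25%, against 2.38% of all genes) and the reverse for 3 (0.0661%, against 0.0312%). The remaining 233 had another mixture. The share of lincRNAs gained in +RV was thus near the background over all genes. With the same number of peaks per library, 32 were called in +RV alone, where 1.06% of all genes were, and 8 in −RV alone, where 0.0839% were.

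Of the 482 lincRNA promoters called in both +RV libraries, 21.2% had no −RV peak. The share was 8.11% of 7755 isolated protein-coding promoters and 8.26% of 14788 genes of all types. On the other base the order was reversed. Of genes without a −RV peak, 2.47% of lincRNAs, 7.60% of isolated protein-coding genes and 3.27% of all genes were called in both +RV libraries. LincRNA and isolated protein-coding promoters differed in peak strength, given here by the fold, the pile-up at the summit over the local background. Where the weaker of the +RV peaks had a fold of 3 to 4, 34.0% of lincRNA and 41.1% of isolated protein-coding promoters lacked a −RV peak. At a fold of 4 to 5 it was 23.6% and 24.1%. At 5 to 7 it was 6.56% (95% exact binomial interval 2.87 to 12.5) and 4.15% (3.36 to 5.06), and at 7 or more 4.92% (1.03 to 13.7) and 0.0788% (0.0163 to 0.230), the only class in which the intervals did not overlap. That class rests on 3 of 61 lincRNA promoters, AC110262.3, Gm30684 and 2310040G24Rik, whose peaks had their summit downstream of the promoter window in both +RV libraries. Only 12.7% of called lincRNA promoters reached that strength, against 49.1% of isolated protein-coding promoters. Intervals here and further on cover counting error only.

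**Figure D2:**
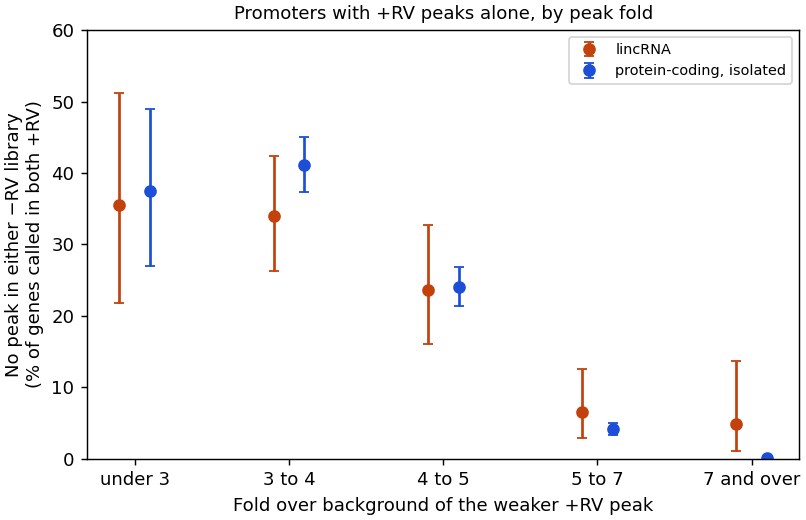
Percent of promoters called in both +RV libraries that had no peak in either −RV library, by the fold of the weaker +RV peak, with 95% exact binomial intervals, for lincRNA and isolated protein-coding genes. Both classes fall from over 34% below a fold of 4 to under 7% above 5. The intervals separate at a fold of 7 or more, from 3 lincRNA promoters with the summit outside the window.

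LincRNA peaks were weaker, narrower and farther from the annotated TSS than peaks of isolated protein-coding promoters in each library. The median fold was 4.27 to 4.46 in the −RV libraries and 4.57 to 4.62 in the +RV libraries, against 6.40 to 6.58 and 7.01 to 7.04. Median widths were 443 to 502 bp over the 4 libraries, against 696 to 944 bp. The summit lay a median of 148 to 165 bp from the TSS, against 57 to 68 bp. It was within 200 bp at 55.1% to 60.1% of called lincRNAs, against 87.5% to 88.3%. Each gene was read at the touched TSS with the nearest summit, so a gene with more TSSs can come out nearer. Windows of the 15464 isolated protein-coding genes covered 45.2 Mb, and those of the 4536 lincRNAs 6.24 Mb. What the number of TSSs does to these distances was not tested.

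The 281 lincRNA promoters called in all 4 libraries had a mean fold of 2.59 to 10.5, with a median of 5.24. Both +RV folds exceeded both −RV folds in 126 of them (44.8%, against 49.5% of all promoters called in all 4 libraries), and both lay below in 20 (7.12%, against 12.4%). Their median ratio of +RV to −RV fold was 1.10, next to 1.11 for isolated protein-coding promoters.

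Gm26611, on chromosome 9 near Trim43c, had the highest mean fold, with 9.30 and 10.4 in −RV and 10.8 and 11.5 in +RV. Gm10010 on chromosome 6 followed with 9.77 and 8.53 in −RV and 10.97 and 12.2 in +RV. BC002059 on chromosome 17 had 9.90 and 8.49 in −RV and 11.2 and 10.5 in +RV. In these 3 genes every +RV library lay above both −RV libraries. Gm20732 on chromosome 15, whose window was richest in CpG of the 10 strongest, went the other way, with 10.9 and 10.3 in −RV and 9.02 and 9.42 in +RV. The other 6 of the 10 strongest (2900076A07Rik, Gm6712, Gm33195, Gm11527, 1810019N24Rik and 4632415L05Rik) ranged from 7.87 to 11.2 over all libraries. Gm11527 and 1810019N24Rik were called in 0 libraries when the summit had to lie inside the window. RefSeq places an mRNA start within 5 kb of Gm6712, under the same name, so for this gene the noncoding label depends on the annotation. The same held for 133 of the 4536 members, 16 of them called in all 4 libraries.

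Among promoters called in +RV alone, AC110262.3 on chromosome 17 had the highest fold, 10.2 and 10.4, with its summit in +RV library 1 lying 669 bp downstream of the TSS and an mRNA start of RefSeq within 5 kb. Gm30684 had folds of 8.57 and 7.52, with the summit 352 bp downstream of its TSS. 2310040G24Rik had 8.01 and 7.28, with the summit 689 bp downstream. For these 3 the summit lay outside the promoter window, and the peak only reached into it. Of the other 7 (4930526H09Rik, 1700012C14Rik, 5330416C01Rik, Gm42797, AL592112.1, Gm32067 and Gm36169, folds of 5.03 to 7.30) the summit was within 200 bp of the TSS in both +RV libraries at Gm32067 and in +RV library 1 alone at 1700012C14Rik. In the pooled single-cell sets, counts are given as CPM, scaled to 1000000 nuclear fragments. Gm30684 had 0 −RV fragments, which allows up to 1.88 CPM, and 1.68 CPM (95% exact Poisson interval 1.06 to 2.52) in +RV. The interval of the +RV to −RV ratio included 1 at each of these 10 genes.

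In −RV alone there were Platr4, first described in embryonic stem cells, with folds of 5.12 and 3.45, 4930597A21Rik with 4.02 and 3.61, and 2810403G07Rik with 3.17 and 3.22. These 3 lay between 26.3 and 62.5 kb from the nearest protein-coding TSS. In the pooled sets their fragments did not differ by more than counting error, for example 3.14 CPM (1.02 to 7.33) in −RV and 2.26 (1.54 to 3.21) in +RV at 2810403G07Rik.

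LincRNAs with described roles were grouped in 6 lists, of which 36 genes met the rule, and 16 of the 36 (44.4%, against 24.8% of all genes) had a peak in all 4 libraries. The lists were drawn up with results of these data known, so their counts are a description. All 3 snoRNA hosts were called in every library. Snhg6 had folds of 7.86 and 7.22 in −RV and 9.08 and 9.14 in +RV. Snhg12 had 7.44 and 7.96 in −RV and 9.04 and 8.75 in +RV. In both genes the +RV folds lay above the −RV folds. Snhg20 had 6.41 and 5.75 in −RV and 5.76 and 7.92 in +RV, so its conditions overlapped.

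Of 7 genes on the microRNA host list, 4 were called in all libraries. Mir155hg, whose miR-155 acts in activated lymphocytes and macrophages, had folds of 3.72 and 4.09 in −RV and 4.99 and 5.08 in +RV. Its summit lay 223 to 255 bp downstream of a TSS, just outside the window, and it was called in 0 libraries when the summit had to lie inside. Mir17hg, host of a microRNA cluster needed for B cell development, had 3.58 and 3.84 in −RV and 5.75 and 5.31 in +RV. For both, the conditions did not overlap. The Mir17hg window had a CpG ratio (observed over expected) of 0.83, and the summit lay inside it in −RV, at −926 and −684 bp from the TSS, and outside it in +RV, at −2037 and −2009 bp, so these folds were read at different positions. Mir670hg had 7.78 and 7.02 in −RV and 10.1 and 9.24 in +RV. Mirt1 had 4.46 and 5.65 in −RV and 5.06 and 5.32 in +RV, and whether Mirt1 hosts a microRNA was not checked. Mir124a-1hg, Mir124-2hg and Mir9-3hg, hosts of neuronal microRNAs, had no peak, although the windows of Mir124a-1hg and Mir9-3hg had CpG ratios of 0.69 and 0.71.

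Abundant nuclear lincRNAs were called with moderate folds. Malat1, a transcript of nuclear speckles, had 5.56 and 5.82 in −RV and 5.74 and 5.29 in +RV. Neat1, the scaffold of nuclear paraspeckles, had 3.99 and 4.01 in −RV and 4.05 and 3.82 in +RV. The conditions overlapped for both. Lncpint had 4.299 and 4.32 in −RV and 4.38 and 4.20 in +RV, and Pvt1, the neighbour of Myc, had 3.68 and 3.64 in −RV and 5.30 and 4.76 in +RV, without overlap. The peak of 2900097C17Rik was missing from −RV library 2 and had folds of 4.57 to 5.92 in the other 3 libraries, and Miat, known from neurons, had none.

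Of 7 blood and immune lincRNAs, 4 were called in all libraries. Lockd, downstream of the cell cycle inhibitor gene Cdkn1b, had folds of 4.42 and 4.18 in −RV and 4.38 and 4.57 in +RV. Ifngas1, beside the interferon gamma gene, had 4.34 and 5.91 in −RV and 5.48 and 5.37 in +RV. Their conditions overlapped. Gm14005, also named Morrbid, which sets the lifespan of short-lived myeloid cells, had 3.14 and 3.59 in −RV and 4.41 and 3.68 in +RV. Ptgs2os2, also named lincRNA-Cox2, which macrophages induce on activation, had 6.22 and 4.27 in −RV and 6.73 and 6.48 in +RV. At these 2 genes both +RV folds lay above both −RV folds. Trp53cor1 (lincRNA-p21), Lncenc1 and Gm28875 had no peak.

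None of the 4 lincRNAs on the imprinted list (Meg3, H19, Mirg and Gm28653) had a peak. Gm28653 lies on chromosome 1 with Pkhd1 as its nearest protein-coding gene, and whether it is imprinted was not checked. Of 9 developmental lincRNAs only Carmn, a gene of smooth muscle that hosts miR-143 and miR-145, was called in every library, with folds of 3.84 and 3.94 in −RV and 5.25 and 4.94 in +RV. Platr4 was called in −RV alone, and Hotair, Rmst, Bvht, Halr1, Lncbate1, Pantr1 and Tbx3os2 had no peak. Hotair, of the HoxC cluster, also had only 1 fragment in each pooled set.

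**Figure D3:**
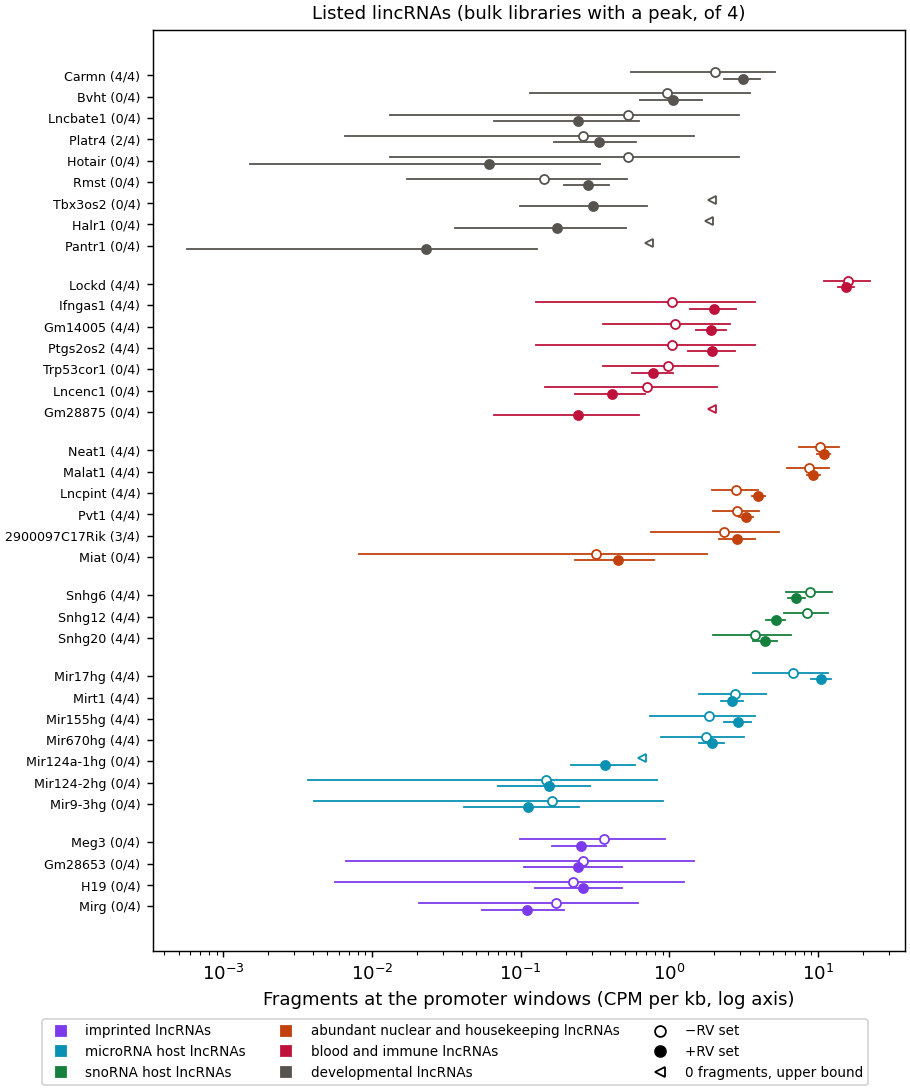
Fragments at the promoter windows of the 36 listed lincRNAs in the pooled single-cell sets (CPM per kb, log axis), with 95% exact Poisson intervals. Open circles are −RV, filled circles +RV, and triangles mark the upper limit where −RV had 0 fragments. Genes on the imprinted list and most developmental genes sit at or below about 1 CPM per kb. The snoRNA hosts, Neat1, Malat1 and Lockd sit between 3.78 and 15.9.

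A fragment was assigned to a window by its midpoint, and its CPM was divided by the window length in kb where genes are compared. One fragment equals 0.628 CPM in −RV and 0.0730 CPM in +RV, so most single lincRNA promoters rested on few fragments: 49.1% of members had any in −RV and 94.8% in +RV, with a median of 0 and 5. There is 1 set per condition, so no difference between the sets was tested. The deposited sets are named as selected on the share of a barcode's reads at TSSs, which the study counts in windows of the extent used here. Each barcode held at least 500 fragments, and at least 9.55% (−RV) and 9.22% (+RV) of its nuclear fragments lay in TSS windows of all genes. Shares at promoters therefore describe selected barcodes only, and what the selection does to the ratio between the sets was not tested.

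Nuclear fragments at lincRNA promoters were 0.710% of the −RV set and 0.883% of the +RV set, a ratio of 1.24 (1.22 to 1.27). Of these fragments, 42.3% and 48.5% fell on 3 neighbouring genes of chromosome 17, AY036118, Gm42418 and Gm26917, which cover a copy of ribosomal DNA. RefSeq lists Gm42418 as a synonym of an rRNA-related sequence, and reads from other ribosomal DNA copies cannot be told apart from reads of these genes. Without them, lincRNA promoters held 0.410% of −RV and 0.455% of +RV fragments, a ratio of 1.11 (1.08 to 1.14), and isolated protein-coding promoters without 3 repeat-like gene models 9.89% and 11.2%, a ratio of 1.13 (1.13 to 1.14). The larger ratio with the ribosomal genes was thus theirs, since they went from 0.300% to 0.429% of fragments, a ratio of 1.43 (1.39 to 1.47).

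Fragment lengths moved with the condition. Fragments longer than 150 bp, about the length of DNA on a nucleosome, made up 2.04% of all −RV and 19.7% of all +RV nuclear fragments. At lincRNA promoters without ribosomal DNA they made up 2.97% and 24.2%, and at isolated protein-coding promoters 4.06% and 28.2%. Among fragments of 51 to 74 bp, the lincRNA share without ribosomal DNA had a ratio of 1.07 (1.02 to 1.13), that of isolated protein-coding promoters 0.998 (0.987 to 1.01), and that of all lincRNA promoters 1.01 (0.964 to 1.05).

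Bulk calls and single-cell fragments ranked lincRNA promoters alike. The 281 called in all 4 bulk libraries had 3.74 CPM per kb in −RV and 4.47 in +RV, the 102 called in +RV alone had 1.36 and 1.41, and those without a peak, leaving out ribosomal DNA, 0.328 and 0.339, next to a genome mean of 0.367. The 102 promoters gained in +RV bulk libraries had a ratio of 1.03 (0.917 to 1.16) between the pooled sets. That interval included 1, but also the 1.11 of lincRNA promoters without ribosomal DNA and the 1.13 of isolated protein-coding promoters. It therefore cannot tell no change from a rise like theirs, and peak calls and fragment shares are unlike measures. For the 281, the ratio was 1.196 (1.1497 to 1.24).

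Fragment midpoints within 100 bp of the TSS were compared with those 2 to 3 kb away on both sides. Enrichment at the 281 lincRNA TSSs was 7.54 (6.84 to 8.32) in −RV and 8.70 (8.43 to 8.98) in +RV, against 18.9 (18.6 to 19.2) and 21.13 (21.01 to 21.25) at isolated protein-coding TSSs called in all 4 libraries. At the 102 lincRNA promoters of +RV alone it was 3.16 (2.39 to 4.13) and 2.77 (2.51 to 3.04). LincRNA TSSs without a peak still had an enrichment above 1, at 1.18 (1.07 to 1.297) and 1.27 (1.23 to 1.31), while protein-coding TSSs without a peak reached 3.40 (3.23 to 3.56) and 3.62 (3.56 to 3.67). Gm33838, with 4211 +RV fragments in its flanks, was left out of these values, a choice made after seeing the data.

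**Figure D4:**
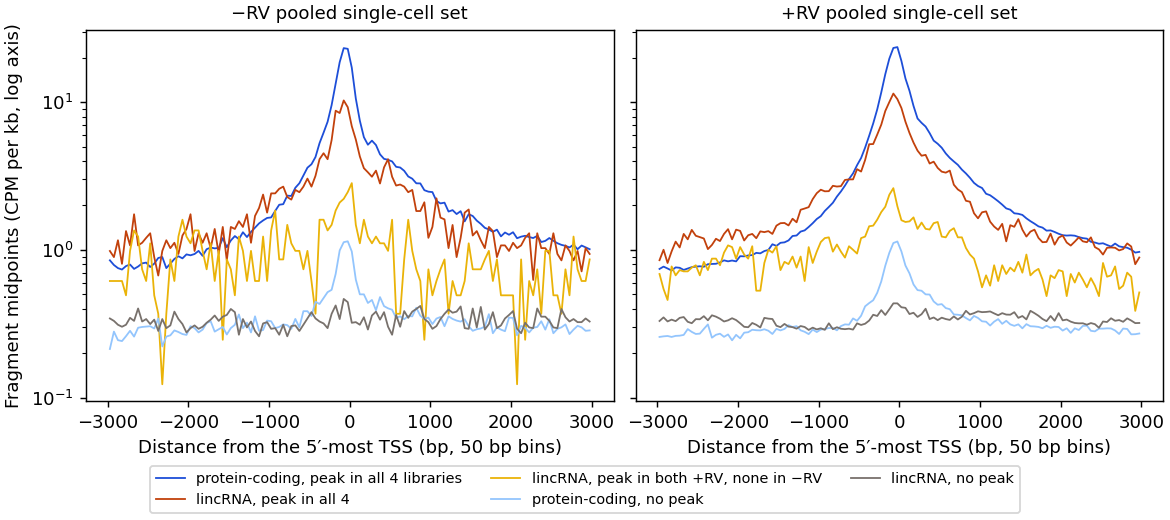
Fragment midpoints around the most upstream TSS (bp, bins of 50 bp) in the −RV and +RV pooled sets, in CPM per kb on a log axis, averaged over genes of each class. LincRNA promoters with a peak in all 4 libraries form a sharp maximum at the TSS below that of protein-coding promoters, and lincRNAs without a peak are nearly flat.

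Gm6410 on chromosome 8 had the highest single-cell level among lincRNA promoters called in all 4 libraries, with 26.7 CPM per kb in −RV and 40.7 in +RV, and its ratio of CPM was 1.53 (1.147 to 2.07). 1700096K18Rik followed with 20.4 and 30.7 (ratio 1.505, 1.09 to 2.14), and Gm20732 with 21.5 and 20.4 (0.952, 0.687 to 1.35). Gm20732 is also among the 10 strongest bulk promoters. The windows of these 3 had CpG ratios of 0.81, 0.74 and 0.96. 5430416N02Rik, 6720427I07Rik, Lockd, Gm2885, Gm36445, Gm49625 and Gm26901 completed the 10 highest, between 10.7 and 19.4 CPM per kb in either set.

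At a mean of at least 5 CPM, 165 lincRNA promoters could be compared between the pooled sets, on the scale of log2(CPM + 1). The median over these promoters was a log2 ratio (+RV over −RV) of 0.25, next to 0.18 for isolated protein-coding promoters. At least 1.5-fold higher in +RV were 27 (16.4%, against 14.3% of all genes), and at least 1.5-fold lower 10 (6.06%, against 2.12%). The interval of the ratio lay above 1 for 18 of the 165 (10.9%, against 8.95% of all genes). It lay below 1 for 5 (3.03%, against 1.63%). Among fragments of 51 to 74 bp the median was −0.17 (136 promoters), and in barcodes with at least 1000 fragments −0.15 (176 promoters), so its direction depended on which fragments and barcodes were counted.

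Gm32856 on chromosome 8 had the highest ratio, from 3.14 CPM (1.02 to 7.33) in −RV to 13.4 (11.6 to 15.5) in +RV, a log2 ratio of 1.80. RefSeq has an mRNA start of the same name there, and its core shared 57.4% of its 31-mers with that of Gm31793, so its reads may be placed at either copy. Gm16046 went from 3.77 (1.38 to 8.20) to 13.3 (11.4 to 15.4), a log2 ratio of 1.58. Behind these values stood 5 and 6 −RV fragments. A830008E24Rik (1.32), Gm5165 (1.07) and Gm26656 (1.03) came next. The lowest log2 ratios belonged to Gm44738 (−1.02, from 12 −RV and 44 +RV fragments), Smkr-ps (−0.96), Gm48607 (−0.84), Gm32051 (−0.79) and 4933404O12Rik (−0.75). Among listed genes, Snhg12 went from 23.2 CPM (16.4 to 32.03) to 14.3 (12.4 to 16.5), a ratio of 0.616 (0.431 to 0.900), while its bulk folds were higher in +RV.

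High fragment counts without any bulk peak were found at few lincRNA promoters. Besides the 3 ribosomal DNA genes, C920006O11Rik on chromosome 9 had 13.6 CPM per kb in −RV and 15.2 in +RV, and Gm39469 had 9.94 and 13.1. RefSeq has an mRNA start near Gm39469. The level of C920006O11Rik was within the range of the 10 highest promoters with peaks. Sequence copies occurred among the members: 90 had a 300-base core that shared at least 50% of its 31-mers with another promoter core, and of these 1, Gm32856, was called in all 4 libraries and 89 in none. Reads from such copies cannot be placed uniquely, so an absent peak there says little. Windows of 210 members overlapped those of another member, and 164 members started inside the body of a protein-coding gene.

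Peak calls followed the CpG content of the window of the most upstream TSS, counting peaks in that window alone. LincRNA windows with a CpG ratio under 0.2 were touched in 3.26% (−RV) and 5.51% (+RV), the mean of 2 libraries. From 0.2 to 0.4 the shares were 7.36% and 12.7%, and from 0.4 to 0.6 they were 17.02% and 24.8%. At 0.6 and over they were 48.9% and 54.9%. Every library showed this order. Isolated protein-coding windows were touched more often in each class, from 5.59% and 7.74% in the lowest to 76.6% and 83.4% in the highest. CpG-rich windows were rare among lincRNAs, 92 genes or 2.03%, against 27.7% of isolated protein-coding genes.

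**Figure D5:**
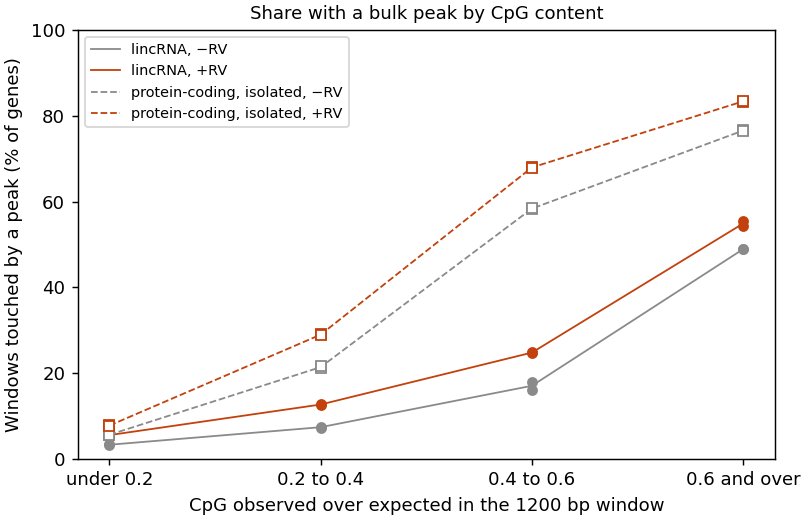
Share of windows touched by a bulk peak (percent of genes) by the observed over expected CpG ratio of the window, for lincRNA (filled) and isolated protein-coding genes (open). Lines join means of 2 libraries and points are libraries. Shares rise with CpG content in both classes and conditions, and lincRNA windows stay below protein-coding windows of the same class.

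The 281 promoters called in all 4 libraries had a median CpG ratio of 0.31, the 102 called in +RV alone 0.28 and those without a peak 0.20. The share with a ratio of at least 0.6 was 16.01%, 4.90% and 1.05%. A GC box was in the core of 26.7% of the 281, 17.6% of the 102 and 6.41% of those without a peak. Over the cores of all 26016 lincRNA and protein-coding genes together, these members included, it was in 37.3%. The shares set against the motifs below are over the same 26016 cores. The TATA box (TATAAA) and the GATA motif (AGATAA), also searched on both strands, went the other way. TATA was in 11.4%, 8.82% and 18.02%, against 13.4% of the 26016, and GATA in 10.7%, 10.8% and 16.98%, against 11.01%. The CCAAT box (CCAAT) was in 30.6%, 29.4% and 38.9%, against 38.3%. The ETS motif (CCGGAAGT) was in 3.20%, 1.96% and 0.945%, against 4.11%, and the CRE (TGACGTCA) in 3.20%, 0% and 0.587%, against 2.13%. The YY1 motif (AAGATGGC) was in 1.78%, 2.94% and 2.35%, against 2.81%, and the NRF1 motif in 0%, 0% and 0.0511%, against 1.04%. Matches are letters in a window and were not tested as bound sites.

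Open lincRNA promoters lay nearer to protein-coding genes and held fewer repeats. The median distance to the nearest protein-coding TSS was 39.2 kb for the 281, 34.0 kb for the 102 and 78.6 kb for lincRNAs without a peak. At 5 to 10 kb, 9.87% (6.76 to 13.8) were called in both −RV and 15.1% (11.3 to 19.7) in both +RV libraries. At 10 to 25 kb it was 9.99% (7.94 to 12.4) and 16.8% (14.2 to 19.6), so the nearest class was not the highest. Beyond 100 kb it was 2.96% (2.23 to 3.85) and 5.76% (4.74 to 6.93). The lower share far from genes was also present within CpG classes. At a ratio of 0.2 to 0.4, the +RV share was 14.1% at 5 to 10 kb, 17.1% at 10 to 25 kb and 8.50% beyond 100 kb. At a ratio under 0.2 it was 4.31%, 8.26% and 2.88%. LincRNAs whose nearest protein-coding gene was called in both +RV libraries were themselves called there in 13.3% (12.03 to 14.5), against 6.05% (4.95 to 7.31) where it was not. Where at least 50% of the core was repeat sequence, 2.97% (1.85 to 4.51) of 706 were called in both +RV libraries, against 12.04% (11.02 to 13.1) of 3830. These features overlap among genes and were not separated from each other.

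LincRNAs with a name of their own, meaning any not of the Gm, Rik or clone accession form, were called more often than numbered gene models. Of 82 such genes 29.3% (19.7 to 40.4) had peaks in both +RV libraries, next to 28.9% of genes of all types. The share was 9.47% (8.47 to 10.5) of 3148 genes named Gm with a number and 12.5% (10.4 to 14.9) of 901 Rik clones. The named genes were also richer in CpG, with 13.4% at a ratio of at least 0.6, against 1.68% and 2.55%. Among 405 models named by a clone accession, the share went from 4.94% (3.04 to 7.52) in both −RV libraries to 11.6% (8.65 to 15.1) in both +RV.

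In the single-cell sets, barcodes with a fragment at a lincRNA promoter were described by their fragments at marker genes of 12 cell types. The value is the CPM of each marker list in those barcodes over an expected CPM. The expected CPM is that of barcodes drawn in proportion to their nuclear fragments. Marker genes within 200 kb of the promoter were left out. As a check of the measure, barcodes with a fragment at Klf1, an erythroid regulator, had 3.34 (2.81 to 3.94) times the erythroid signal in +RV and 1.97 (0.793 to 4.06) in −RV, where 10 fragments gave an interval that included 1. Those at Cela1, a pancreatic enzyme gene, had 7.19 (6.27 to 8.21) times the acinar signal in +RV and 7.47 (5.60 to 9.78) in −RV. The 104 lincRNA promoters with at least 100 +RV barcodes lay closer to 1. Over them the median was 1.02 for B cell and 1.07 for T cell markers, with 21 and 26 intervals above 1, and 0.86 for erythroid markers, with 10 intervals above 1 and 35 below. Acinar markers spread widest, from 0.23 to 2.51 with a median of 0.91, and had 14 intervals above 1 and 23 below. Each list was read at 104 promoters, so some intervals exclude 1 by counting alone, and no test was made.

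Gm8013 on chromosome 5 had the highest erythroid value, 2.42 (1.98 to 2.92) in +RV and 1.54 (0.621 to 3.18) in −RV, followed by 9430037G07Rik with 1.87 (1.52 to 2.29) and Gm26611 with 1.82 (1.52 to 2.17) in +RV. 9430037G07Rik and Gm26611 both lie on chromosome 9 beside Trim43 genes. The highest acinar values were those of 2410080I02Rik, 2.51 (1.79 to 3.42) in +RV and 2.47 (0.803 to 5.77) in −RV, and of A230028O05Rik, 2.24 (1.63 to 3.01) and 1.3 (0.268 to 3.79). AC132455.2, which had no bulk peak, had 2.12 (1.54 to 2.85) in +RV and 2.81 (1.13 to 5.78) in −RV. For lymphoid lists, Gm5547 had 1.59 (1.33 to 1.88) and Gm45029 1.51 (1.22 to 1.85) times the T cell signal, and 4930580E04Rik 1.38 (1.18 to 1.59) times the B cell signal in +RV. In −RV the last 2 had 2.61 (1.13 to 5.15) and 1.87 (1.07 to 3.03), the same direction with few fragments. The −RV interval of Gm5547 for T cell markers, 0.450 to 2.31, included 1. Gm45029 also had the highest B cell value in +RV, 1.40 (1.16 to 1.69), and Gm15326 had 1.38 (1.14 to 1.64). Both were below 1 in −RV, at 0.793 (0.163 to 2.32) and 0.449 (0.0926 to 1.31), with few fragments. Gm12148 had 1.52 (1.19 to 1.91) times the macrophage and monocyte signal in +RV and 2.76 (1.43 to 4.83) in −RV.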

How the data were processed

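For bulk ATAC-seq the authors deposited 1 peak list per library on mm10, in the layout of MACS2. Its score column, as deposited, equals the −log10 q times 10, as an integer. The fold column, also deposited, is a ratio of summit pile-up to local background, and the −log10 p and −log10 q come from the authors' caller within each library. Only positions, folds and −log10 q were used. Methods of the study mention MACS2 and a blacklist filter, and the submitters' notes list Bowtie2 2.4, SAMtools 1.15, Picard 1.119 and SEACR 1.3. The tool behind each bulk list is not given in the sources. A call depends on depth and caller settings, and a missing peak is not a measured 0. Single-cell files, as deposited by the authors, hold positions (start and end on mm10) and the barcode of unique fragments, pooled over replicates. Condition was read from an abbreviation shared with the bulk lists. The 8 samples were grouped by their titles.

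Windows were built from GENCODE M21, 1000 bp upstream to 200 bp downstream of each TSS, with sequence from the RefSeq mm10 genome. A gene was called when a peak touched a window in both libraries of a condition. Shares were compared by exact two-sided permutation over 2 against 2 libraries. Shares and ratios of counts carry 95% exact intervals and a count of 0 a limit of 3 counts. Log2 ratios added 1 CPM to both values, were read where the mean reached 5 CPM with a size rule of 1.5-fold, and understate changes of low genes. CpG ratios used the window of the most upstream TSS. The isolated protein-coding genes Gm10800, Gm10801 and Gm21738, with over 1000 +RV fragments and no peak, were left out of single-cell values.

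Members, lists and the rule for named genes were chosen with earlier results of these data known. Named genes were listed lincRNAs, the 10 highest by fold and by CPM per kb among those called in all libraries, up to 10 called in 1 condition alone, the 5 highest and 5 lowest ratios, the 5 highest without a peak and, per marker list, the 3 highest ratios, of which some are printed. Alternatives were other windows, distances, peak thresholds, peak numbers, fragment lengths, barcodes, depths, pseudocounts and left-out libraries. Scripts were tested on simulated data and run with python 3.11.15, numpy 2.4.6, pandas 2.3.3, scipy 1.17.1, pysam 0.24.0 and matplotlib 3.10.9.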

Additional observations from a re-analysis of the deposited data

How the results depend on the processing

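The ratio of lincRNA shares between the conditions and that relative to isolated protein-coding genes kept their direction under every alternative run. They were 1.19 and 1.098 with equal peak numbers, 1.52 to 1.59 and 1.33 to 1.38 under the other alternatives, and 1.566 to 1.571 and 1.36 to 1.37 with 1 library left out. With the replicate block the share ratio was 1.57 (exact sign-flip test over the paired differences, p = 0.5, the smallest it can give). The number does not pair the libraries by any label, and folds of same-numbered libraries deviated together with a correlation of −0.0031 over all promoters called in all 4 libraries, and 0.049 over lincRNAs. Promoters called in +RV alone numbered 32 with equal peak numbers per library and 149 to 158 with 1 library left out. Those called in −RV alone numbered 8 with equal peak numbers, 7 with the summit inside the window and 4 to 7 with 1 library left out. Chosen after seeing the data, leaving out members with a RefSeq mRNA start within 5 kb gave 95 and 3.

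Single-cell values moved more. The share ratio was 1.20 in barcodes with at least 1000 fragments, 1.01 for fragments of 51 to 74 bp, 1.11 without the 3 ribosomal DNA genes and 1.07 with both of the last, these last 2 added after seeing the data. The median log2 ratio turned to −0.15 in barcodes with at least 1000 fragments, to −0.17 for 51 to 74 bp and to −0.16 for 51 to 74 bp without ribosomal DNA, and was 0.21 with windows of 500 bp on either side and 0.20 with no minimum. The cause was not tested. Promoters at least 1.5-fold higher and lower numbered 45 and 55 in the deeper barcodes, 567 and 457 with no minimum and 44 and 19 with +RV thinned to the depth of −RV. Lower ones numbered 41 for 51 to 74 bp, with or without ribosomal DNA, and 6 beyond 10 kb. Few fragments limit single genes: of named genes, the log2 ratio turned at Gm48607 (0.71), Gm32051 (0.041) and Gm32633 (−0.018) for 51 to 74 bp, with or without ribosomal DNA, at Gm44738 (0.15) with 500 bp windows, and for 51 to 74 bp at Gm26917 (−0.13), which lies in ribosomal DNA and had no peak. Of 1097 log2 ratios of named genes under alternatives 1032, and of 596 numbers of libraries with a peak 564, stayed within the limits set for a change.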

Other observations

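Other gene types more than 5 kb from a protein-coding TSS were called at different rates. Antisense genes were nearest to lincRNAs, with 6.04% of 1390 called in both −RV and 10.1% in both +RV libraries. Genes typed as processed transcripts had 17.5% and 21.7% of 405. Unconfirmed models (TEC) had 3.10% and 4.70% of 2423, microRNA genes 1.33% and 2.80% of 1356, snoRNA genes 3.30% and 3.75% of 1121, and processed pseudogenes 0.830% and 1.497% of 7949.

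Immunoglobulin variable genes, the segments that B cells join to make antibodies, were called at 4 of 218 genes in both −RV libraries and at 18 in both +RV libraries (8.26%), and variable segments of the T cell receptor at 3 and 8 of 143. Ribosomal RNA genes were called at 4 of 265 in both conditions. None of these differences was tested.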
